A study of Homo sapiens with 4 samples.

Results

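The genes described here encode the cadherins, catenins and desmosomal proteins that hold epithelial cells together. They were taken as the rows of both deposited transcript tables whose gene symbol was one of CDH1, CDH17, CTNNA1, CTNNB1, CTNND1, JUP, DSC2, DSG2, DSP or PKP2. All 10 genes were found, of 27685 genes in the tables, and the reads and FPKM of their transcripts were summed per gene. FPKM is the number of reads per kilobase of transcript, scaled to the depth of the library. It adjusts for transcript length, but a trend with length can remain, as described with the lengths.

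RNA-seq was performed on HT-29, a human colorectal adenocarcinoma cell line used as a model of colonic epithelium. The cells stably expressed either a control vector (Mock) or TRIM40 with a Myc tag at its N-terminus (Myc-TRIM40). The study's methods describe delivery of genes by retrovirus and selection of the transduced cells with puromycin. No further treatment of either condition is named in the sources used here. The labels give the control genotype as WT, and whether each line was a pool or a clone is not given in the sources used here. There were 2 independent experiments with 1 library per condition in each, 4 libraries in all, and each table holds the pair of libraries of 1 experiment. TRIM40 is an E3 ubiquitin ligase. The study asked how its overexpression alters the RNA and the integrity of colonic epithelial cells.

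As a check of the labels, TRIM40 had no reads in either control library, against 272646 (experiment 1) and 110665 (experiment 2) in Myc-TRIM40 cells. Libraries held between 60954602 and 67424698 estimated reads. The 8 colon epithelial markers checked (among them EPCAM, KRT8, KRT18 and VIL1) had a summed level of 6275 to 8911 FPKM, led by KRT8. Not all of the 8 were high: CDX1 had at most 0.41 FPKM, CDX2 at most 1.39 and CEACAM5 at most 2.66. The 8 mesenchymal markers summed to between 0.99 and 2.56 FPKM, with SPARC, COL1A2 and COL3A1 at 0 reads in every library. This sum was higher in Myc-TRIM40 cells in both experiments (1.52 and 2.56, then 0.99 and 1.37 FPKM), and its part in the results was not tested. Of the 6 leukocyte markers, CD3E was at 0 reads in every library, and the sum of 1359 to 1863 FPKM was almost all LYZ, which intestinal epithelium also makes. Without LYZ the other 5 summed to between 2.11 and 3.67 FPKM.

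Cadherins are transmembrane proteins that bind their like on the neighbouring cell through calcium-dependent extracellular repeats. In the adherens junction, the tail of E-cadherin binds β-catenin and p120-catenin, and α-catenin links this complex to the cortical actin cytoskeleton. In the desmosome, desmocollins and desmogleins take the place of E-cadherin, plakoglobin and plakophilins bind their tails, and desmoplakin ties the plaque to keratin filaments. In the intestine both junctions lie along the lateral border of the epithelium, below the tight junction.

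None of the 10 genes passed an adjusted p of 0.05 between Myc-TRIM40 and control cells (edgeR's quasi-likelihood test, experiment as a block, Benjamini-Hochberg adjustment). Of the 14868 genes tested, 0.0605% passed, 0.0404% higher and 0.0202% lower, and all 10 junction genes were among those tested. DESeq2 also called 0 of the 10. At an unadjusted p under 0.05, 1 gene passed in edgeR, DSP, which was higher, against 4.54% of all genes tested in either direction and 3.41% higher. The estimate was above 0 for 8 of the 10, against 54.9% of all genes. The estimated log2 fold changes ran from -0.085 for CTNNA1 to 0.57 for DSP, with a median of 0.24, against a median of 0.037 over all genes tested, and the adjusted p lay between 0.888 and 0.983. The median was 0.017 without experiment 2, and 0.056 over 9 of the genes in a limma fit with a trend on transcript length removed, as described with the lengths. The experiments differed in what they showed. In experiment 1 no junction gene changed 1.5-fold on the ratio of FPKM + 1 (0 of 10, against 3.83% of the 11801 genes with a mean of at least 1 FPKM). CDH17, with a mean of 0.37 FPKM, is not among those 11801 genes. In experiment 2, CDH1, CTNND1 and DSP were past 1.5-fold and higher (3 of 10, against 10.7% of those genes in that direction and 14.1% in either). Ratios were above 0 for 7 of 10 in experiment 1, against 53.3% of those genes, and for 10 of 10 in experiment 2, against 60.4%. When the ratios of experiment 2 were centred on the median of those genes, which is then 0, 8 of 10 were above 0. In bulk RNA, fewer cells with a transcript and less of it per cell cannot be told apart. All these ratios come from 1 library per condition and carry no test.

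**Figure D1:**
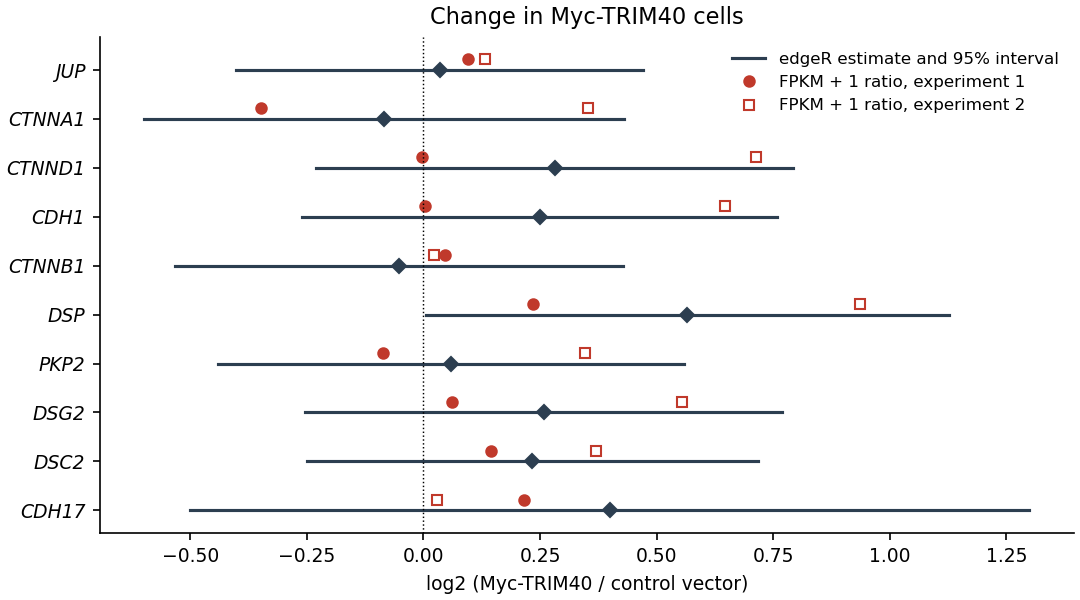
Log2 change of each gene in Myc-TRIM40 against control cells (x axis), genes ordered by level (y axis). Diamonds and bars are edgeR's estimate and its 95% interval over both experiments, and circles and squares are the ratio of FPKM + 1 in experiment 1 and experiment 2. For 9 of the 10 genes the bar crosses 0, and for DSP it starts at 0.0049. The squares of CDH1, CTNNA1, CTNND1, DSG2, DSP and PKP2 lie well to the right of their circles.

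Among the chosen genes, levels fell into a high adherens junction group and a lower desmosome group. The split did not extend to their relatives. The plakophilin PKP3, named after its values were seen, had 62.7 to 66.2 FPKM, and P-cadherin (CDH3) had 2.74 to 5.35 FPKM. JUP (plakoglobin), which serves both junctions, had the highest mean at 164.5 FPKM, followed by CTNNA1 at 119.2, CTNND1 at 85.1, CDH1 at 77.8 and CTNNB1 at 62.1 FPKM over the 4 libraries. After a gap came DSP at 16.4, PKP2 at 16.3, DSG2 at 11.7 and DSC2 at 4.87 FPKM. CDH17 was last at 0.37 FPKM. The ranges of neighbours in this order did not overlap between CTNNA1 and CTNND1, CTNNB1 and DSP, DSG2 and DSC2, or DSC2 and CDH17. JUP and CTNNA1, CTNND1 and CDH1, CDH1 and CTNNB1, DSP and PKP2, and PKP2 and DSG2 had ranges that overlapped. Within a library, however, JUP was above CTNNA1 and CTNND1 above CDH1 in 4 of 4.

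**Figure D2:**
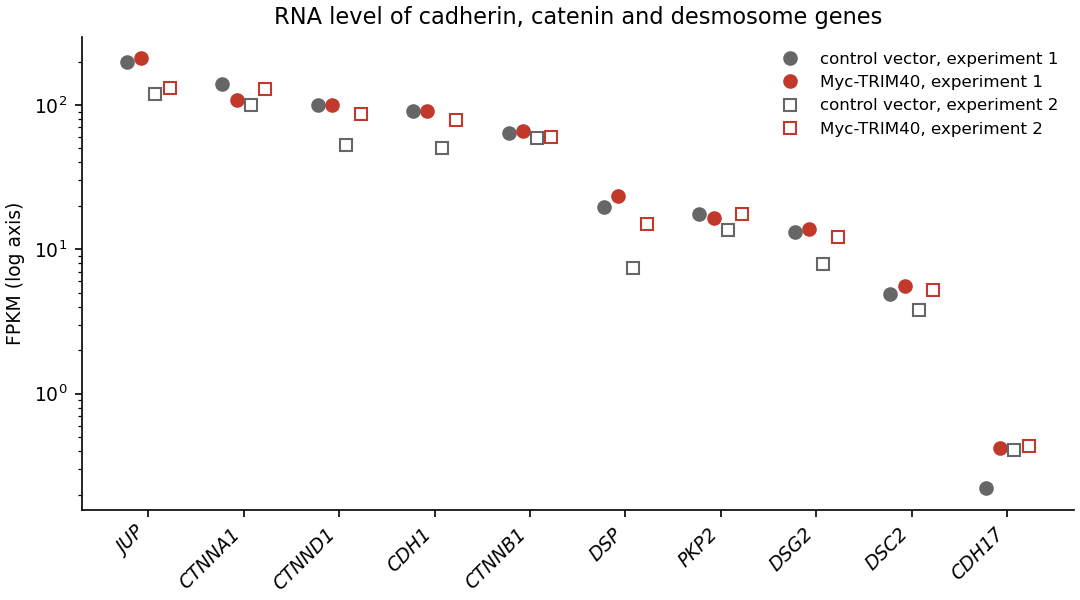
FPKM (log axis) of the 10 genes in each library, ordered by mean level. Gray is control vector and red Myc-TRIM40, filled circles are experiment 1 and open squares experiment 2. The open gray square, the control of experiment 2, is the lowest of the 4 points for 9 of the 10 genes, all but CDH17.

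CDH1 encodes E-cadherin, the main cadherin of epithelial adherens junctions, and lies at chr16:68771193-68869445 (hg19). It had 91.1 FPKM in control and 91.2 FPKM in Myc-TRIM40 cells of experiment 1, and 50.05 FPKM in control and 78.9 FPKM in Myc-TRIM40 cells of experiment 2. The control of experiment 2 was thus far below the other 3 libraries, and the conditions overlapped. The log2 ratio of FPKM + 1 was 0.0023 in experiment 1 and 0.65 in experiment 2. edgeR gave a log2 fold change of 0.25 (standard error 0.22, 95% interval -0.26 to 0.76, adjusted p = 0.888), which as a fold runs from 0.84 to 1.69. Almost all of its reads, from 96.5% to 98.7% per library, were assigned to 1 of its 4 RefSeq transcripts, NM_004360.

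CTNND1 (p120-catenin), which binds the E-cadherin tail near the membrane and keeps the cadherin at the surface, followed CDH1 closely. It lies at chr11:57529234-57586652 (hg19) and had 100.2 and 100.04 FPKM in control and Myc-TRIM40 cells of experiment 1, then 52.9 and 87.3 FPKM in those of experiment 2. As for CDH1, the control of experiment 2 stood apart from the other 3 libraries. The ratio of CTNND1 to CDH1 in FPKM was 1.10, 1.10, 1.06 and 1.11 in control and Myc-TRIM40 of experiment 1 and then of experiment 2, the most even of the ratios examined. Both genes have long transcripts, for most of which the control of experiment 2 was the lowest library. Ratios of other pairs of long genes were not computed. edgeR's log2 fold change was 0.28 (standard error 0.22, 95% interval -0.23 to 0.79, adjusted p = 0.888). The readthrough gene TMX2-CTNND1, which overlaps it, had between 0 and 7 reads per library, against at least 21490 for CTNND1.

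CTNNB1 (β-catenin), which joins E-cadherin to α-catenin and also carries Wnt signals to the nucleus, was the steadiest gene of the set. It had 63.5 FPKM in control and 65.5 FPKM in Myc-TRIM40 cells of experiment 1, and 59.1 and 60.1 FPKM in experiment 2. The 4 libraries thus lay close together, with an SD of 2.98 FPKM around 62.1 (n = 4). Its log2 ratios were 0.045 and 0.023, and edgeR gave -0.052 (standard error 0.21, 95% interval -0.53 to 0.43, adjusted p = 0.974). Because CDH1 varied and CTNNB1 did not, the ratio of CTNNB1 to CDH1 was 1.18 in the control of experiment 2 and between 0.70 and 0.76 in the other 3 libraries. The gene lies at chr3:41240915-41281944 (hg19).

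CTNNA1 (αE-catenin), the link from the cadherin complex to actin, moved in opposite directions in the experiments. It lies at chr5:138089075-138270723 (hg19). Control cells had 138.6 FPKM and Myc-TRIM40 cells 108.7 FPKM in experiment 1, a log2 ratio of -0.35. In experiment 2 control cells had 100.6 FPKM and Myc-TRIM40 cells 128.8 FPKM, a log2 ratio of 0.35. The conditions overlapped fully, and edgeR's log2 fold change was -0.085 (standard error 0.23, 95% interval -0.60 to 0.43, adjusted p = 0.962).

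The library with the lower level in Myc-TRIM40 cells also differed in which CTNNA1 transcripts its reads were given to. NM_001903 took 84.4% and 81.7% of CTNNA1 reads in the control libraries and 84.2% in Myc-TRIM40 cells of experiment 2, but 36.1% in Myc-TRIM40 cells of experiment 1. There, NM_001323985 took 25.05% of the reads, against between 2.00% and 3.84% in the other libraries, and NM_001323986 took 13.1%, against at most 4.22%. NM_001903 and NM_001323985 are close in length, at 3793 and 3766 bases in the files. CTNNA1 has 37 RefSeq transcripts in the tables, 13 of them with reads, and how far reads can be told apart between them was not tested.

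**Figure D3:**
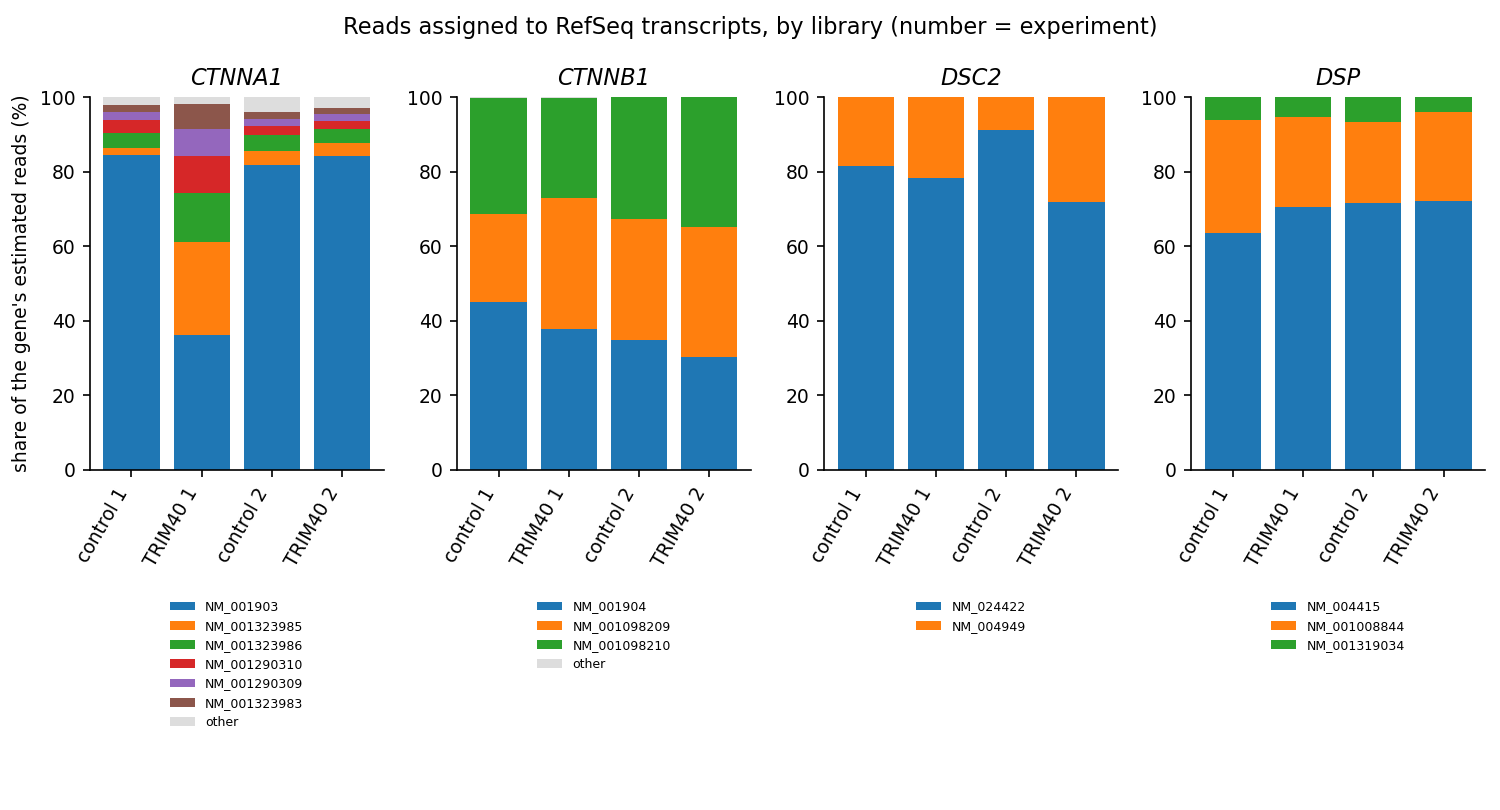
Share of each gene's estimated reads (y axis, %) assigned to its RefSeq transcripts in each library (x axis, control and Myc-TRIM40 of experiments 1 and 2). Transcripts with at least 5% in some library have their own color, and the rest are gray. In CTNNA1 the share of NM_001903 is 36.1% in Myc-TRIM40 cells of experiment 1 and at least 81.7% in the other 3 libraries, while in DSP the order of the transcripts is the same in all 4.

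β-catenin transcripts were divided more evenly. NM_001904, NM_001098209 and NM_001098210 took between 23.7% and 44.96% of CTNNB1 reads in every library. The share of NM_001904 was lower in Myc-TRIM40 than in control cells in both experiments, at 44.96% and 37.8% in experiment 1 and 34.7% and 30.3% in experiment 2. The fall within each experiment was smaller than the difference between the 2 control libraries.

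JUP (plakoglobin), a close relative of β-catenin that binds the tails of both classical and desmosomal cadherins, differed between experiments and hardly between conditions. It had 197.0 FPKM in control and 210.7 FPKM in Myc-TRIM40 cells of experiment 1, and 119.4 and 130.9 FPKM in experiment 2. Both libraries of experiment 2 were below both of experiment 1. The log2 ratios were 0.096 and 0.13, and edgeR's log2 fold change was 0.035 (standard error 0.19, 95% interval -0.40 to 0.47, adjusted p = 0.983), the interval of the smallest width in the set. Its 2 transcripts kept their shares, with NM_002230 at 73.1% to 75.5% of reads. JUP lies at chr17:39910859-39942964 (hg19).

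CDH17 (LI-cadherin), an intestinal cadherin that lacks the catenin-binding tail of E-cadherin, was scarcely detected. It had 52 reads in control and 97 reads in Myc-TRIM40 cells of experiment 1, and 105 and 103 reads in experiment 2, or between 0.22 and 0.43 FPKM. Only the control of experiment 1 was low, and the other 3 libraries were alike. Per total reads, Myc-TRIM40 cells had 1.86 times as many CDH17 reads in experiment 1 (95% Clopper-Pearson interval 1.32 to 2.66) and 1.06 times as many in experiment 2 (0.80 to 1.40). These intervals cover counting error and not the spread between cultures. edgeR's log2 fold change was 0.40 (standard error 0.39, 95% interval -0.50 to 1.2996, adjusted p = 0.892).

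DSP (desmoplakin), which anchors keratin filaments to the desmosomal plaque, had the largest estimate of the 10 genes. It lies at chr6:7541808-7586950 (hg19). Control cells had 19.7 FPKM and Myc-TRIM40 cells 23.4 FPKM in experiment 1. In experiment 2 control cells had 7.37 FPKM and Myc-TRIM40 cells 15.01 FPKM, a 2.04-fold ratio. Myc-TRIM40 was higher within each experiment, but the Myc-TRIM40 library of experiment 2 was below the control of experiment 1, so the conditions overlapped. edgeR gave a log2 fold change of 0.57 (standard error 0.25, 95% interval 0.0049 to 1.13, unadjusted p = 0.0484, adjusted p = 0.888). The gap between the 2 controls, 0.37-fold, was larger than the change in either experiment.

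Desmoplakin is made in a long form with a full coiled-coil rod (DPI) and a shorter form with much of the rod removed (DPII), by use of an inner splice donor within 1 large exon. GENCODE v29 places this exon at chr6:7579275-7581569 (GRCh38, plus strand, 2295 bases) in the long form and ends it after 498 bases in the short form, which removes 1797 bases. The sequences around the inner donor are shown because a read across this point separates the short form from the long form. Reads within the 1797 removed bases separate them too. Lower case is the shared end of the short exon, and capitals are what follows it in each form.
DPI (NM_004415): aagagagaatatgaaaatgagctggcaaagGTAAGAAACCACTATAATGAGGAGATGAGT
DPII (NM_001008844): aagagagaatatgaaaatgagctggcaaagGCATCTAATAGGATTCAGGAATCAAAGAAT

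Both forms had reads in every library. NM_004415 had 11.7 and 15.6 FPKM in control and Myc-TRIM40 cells of experiment 1 and 4.97 and 10.2 FPKM in those of experiment 2. NM_001008844 had 6.80 and 6.46 FPKM in experiment 1 and 1.86 and 4.14 FPKM in experiment 2. The long form thus took 63.6%, 70.6%, 71.5% and 72.2% of DSP reads in these 4 libraries, and the short form 30.3%, 24.0%, 21.8% and 23.9%. An intermediate form, NM_001319034, took between 3.88% and 6.70%. The control of experiment 1 had the largest share of the short form, and the other 3 libraries were within a few percentage points of each other.

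DSG2 (desmoglein-2), the desmoglein of simple epithelia, lies at chr18:29077967-29128970 (hg19). It had 13.1 and 13.8 FPKM in control and Myc-TRIM40 cells of experiment 1 and 7.94 and 12.1 FPKM in those of experiment 2. Again the control of experiment 2 was the low library. edgeR's log2 fold change was 0.26 (standard error 0.22, 95% interval -0.25 to 0.77, adjusted p = 0.888). The ratio of CDH1 to DSG2 ran from 6.30 to 6.93 over the 4 libraries. Both have long transcripts, and the control of experiment 2 was the lowest library for most such genes, as described with the lengths. How even this ratio is for other pairs of long genes was not computed. The antisense gene DSG2-AS1, which overlaps it, had 0 reads in each library.

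DSC2 (desmocollin-2), the partner of DSG2 in the desmosome, was 1 of 2 members, with CDH17, whose conditions did not overlap. It had 4.90 FPKM in control and 5.53 FPKM in Myc-TRIM40 cells of experiment 1, and 3.82 and 5.22 FPKM in experiment 2. Both Myc-TRIM40 libraries were above both controls, a pattern found in 12.8% of the 11801 genes, which do not include CDH17. edgeR's log2 fold change was 0.23 (standard error 0.21, 95% interval -0.25 to 0.72, adjusted p = 0.888). The ratio of DSG2 to DSC2 lay between 2.08 and 2.68. The gene lies at chr18:28645940-28682395 (hg19), and the antisense gene DSCAS, which overlaps it, had at most 4 reads.

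DSC2 RNA is spliced into an a form with the full tail, which binds plakoglobin, and a b form with a shorter one. The b form includes a small exon of 46 bases, placed by GENCODE v29 at chr18:31068299-31068344 (GRCh38, minus strand), which changes the frame and shortens the coding sequence from 2703 to 2541 bases. The exon is shown in capitals with the 20 bases on each side, and below it their direct join in the a form.
DSC2b (NM_004949): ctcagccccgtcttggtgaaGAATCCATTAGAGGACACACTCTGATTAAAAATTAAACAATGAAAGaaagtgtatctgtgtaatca
DSC2a (NM_024422): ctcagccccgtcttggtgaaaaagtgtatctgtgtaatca

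The a form took most DSC2 reads in every library. The b form took 18.4% in control and 21.6% in Myc-TRIM40 cells of experiment 1, and 8.89% in control and 28.2% in Myc-TRIM40 cells of experiment 2. The share of the b form was higher in Myc-TRIM40 cells in both experiments. How often transcripts of other genes show such a pattern was not computed. The larger step was in experiment 2, whose control had the lowest share of the b form of any library. In reads, the b form went from 295 to 390 and from 123 to 494, while the a form went from 1305 to 1419 and from 1260 to 1258. These are shares of estimated reads from 1 library per condition in each experiment and were not tested. How far reads can be told apart between the forms was not tested either.

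PKP2 (plakophilin-2), an armadillo protein that links desmosomal cadherins to desmoplakin, showed no common direction. It had 17.5 and 16.5 FPKM in control and Myc-TRIM40 cells of experiment 1 and 13.7 and 17.7 FPKM in those of experiment 2. Only the control of experiment 2 was somewhat low. edgeR's log2 fold change was 0.059 (standard error 0.22, 95% interval -0.44 to 0.56, adjusted p = 0.971). The gene lies at chr12:32943680-33049780 (hg19).

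PKP2 has 2 RefSeq transcripts in the tables. NM_001005242 (PKP2a) took 97.1% and 96.7% of PKP2 reads in control and Myc-TRIM40 cells of experiment 1, all of them in the control of experiment 2, and 96.7% in its Myc-TRIM40 cells. NM_004572 (PKP2b), named here after its values were seen, had 136, 147 and 161 reads in 3 libraries and 0 reads in the control of experiment 2.

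Most of the junction genes shared a feature that was also common among other genes with long transcripts. The control of experiment 2 held the lowest of the 4 FPKM values for 9 of the 10 genes, against 44.4% of the 11801 genes with a mean of at least 1 FPKM. The exception, CDH17, is not among those 11801. All 9 have transcripts over 3 kb on average, and the fold changes of experiment 2 moved with transcript length over all genes. The median log2 ratio of experiment 2 was -0.35 for 2147 genes under 1.5 kb, -0.039 for 4103 genes from 1.5 to 3 kb, 0.24 for 3260 genes from 3 to 5 kb and 0.46 for 2291 genes of 5 kb and over. In experiment 1 the same 4 medians lay between -0.020 and 0.031. The control of experiment 2 was the lowest library for 60.95% of genes from 3 to 5 kb and 81.8% of genes of 5 kb and over. CTNNB1 and JUP, with mean lengths of 3478 and 3433 bases, had the smallest log2 ratios of experiment 2 among these 9 genes, and DSP, at 9265 bases, had the largest.

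**Figure D4:**
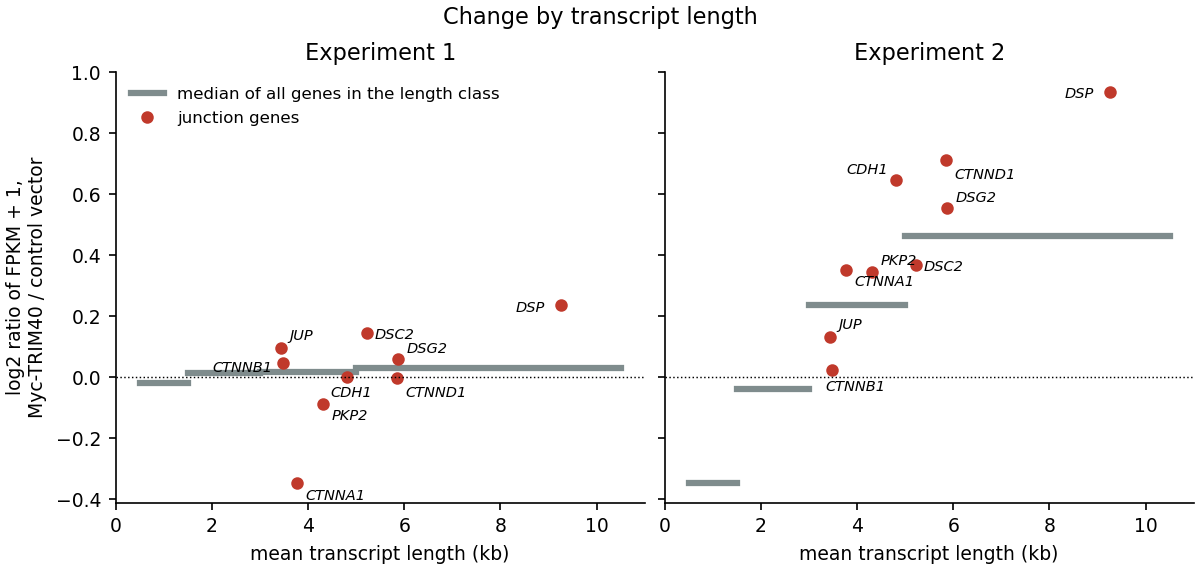
Log2 ratio of FPKM + 1 in Myc-TRIM40 against control cells (y axis) against mean transcript length (x axis, kb) for the 9 junction genes with a mean of at least 1 FPKM (red) and the median of all genes in each length class (gray bars), in experiment 1 (left) and experiment 2 (right). The gray bars run from -0.35 to 0.46 in experiment 2 and lie between -0.020 and 0.031 in experiment 1, and the junction genes rise with length in experiment 2.

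The trend on length over all genes was then removed from both experiments, a step added once the values were known. The median of the 9 genes in experiment 2 went from 0.37 to 0.12. CDH1 then had a log2 ratio of 0.30 in experiment 2, CTNND1 0.30, DSG2 0.14 and DSP 0.37, and CTNNB1 had -0.17 and JUP -0.056. None of the 9 genes was past 1.5-fold in either direction (0 of 9, against 5.52% of the genes), and 6 of the 9 were above 0, against 49.6%. CTNNA1 stayed opposite in the experiments, at -0.37 and 0.12. DSG2, at 0.030 and 0.14, and DSP, at 0.20 and 0.37, were the 2 of the 9 genes above 0 in both experiments, against 26.2% of the genes. Ratios of 7 of the 10 genes were above 0 in both experiments before this step, against 34.6% of the 11801 genes, and that share was 48.5% among genes of 3 to 5 kb and 55.5% among longer ones. The 7 include CDH17, which is not among the 11801.

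Many relatives of these genes that mark other tissues had no reads. Of 18 paralogs, 8 had 0 reads in every library, a count that allows an expected number of up to 3 reads per library (95% level, counting error only). They were N-cadherin (CDH2) of neural and mesenchymal cells, VE-cadherin (CDH5) of endothelium, CDH11, the desmocollins DSC1 and DSC3 and desmogleins DSG1 and DSG3 of stratified epithelium, and δ-catenin (CTNND2) of neurons. CTNNA3, an α-catenin of heart muscle, had at most 5 reads. Of the 7 paralogs expressed enough to be tested, none passed an adjusted or an unadjusted p of 0.05 in edgeR, and their median log2 fold change was -0.0038. P-cadherin (CDH3) had 4.75 and 5.35 FPKM in control and Myc-TRIM40 cells of experiment 1 and 2.74 and 3.50 FPKM in those of experiment 2, so that E-cadherin was 17.0 to 22.5 times as high. PKP1, a plakophilin of stratified epithelium, was detected at a level near that of CDH17, with between 84 and 152 reads and at most 0.45 FPKM, and its log2 fold change was 0.33 (standard error 0.33). DSG4, a desmoglein of the hair follicle, had between 2 and 25 reads and a log2 fold change of 1.55 (standard error 0.82, unadjusted p = 0.0953 in edgeR). PKP3, named after its values were seen, had 3.54 to 4.65 times the FPKM of PKP2.

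Of 17 other junction genes, which include nectins, afadin, vinculin and the envelope proteins of the desmosome, 16 were tested and none passed an adjusted p of 0.05 in edgeR. Their median log2 fold change was 0.21, close to that of the 10 junction genes. At an unadjusted p under 0.05, 3 of the 16 were higher and 0 lower, against 3.41% of all genes tested higher, and each of the 3 had an adjusted p of 0.888 in edgeR. Periplakin (PPL), a relative of desmoplakin, had 21.9 and 28.04 FPKM in control and Myc-TRIM40 cells of experiment 1 and 8.61 and 16.4 FPKM in those of experiment 2, with an edgeR log2 fold change of 0.56 (standard error 0.23). The tight junction scaffold ZO-1 (TJP1), with a mean transcript length of 7853 bases, had 25.3 FPKM in control and 30.6 in Myc-TRIM40 cells of experiment 1, against 4.85 and 20.99 in experiment 2. CDHR5, a protocadherin of the brush border, had 6.15 and 13.6 FPKM in experiment 1, against 4.42 and 5.90 in experiment 2. Its larger ratio was in experiment 1, whereas PPL and TJP1 had theirs in experiment 2, with the low control. With the length trend removed, the log2 ratios of experiments 1 and 2 were 0.23 and 1.39 for TJP1. They were 0.31 and 0.42 for PPL, and 1.02 and 0.17 for CDHR5.

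Transcription factors that repress E-cadherin were low or absent in both conditions. SNAI2, TWIST1 and TWIST2 had 0 reads in every library. SNAI1 had 1.72 and 1.70 FPKM in control and Myc-TRIM40 cells of experiment 1 and 1.15 and 1.35 FPKM in those of experiment 2. ZEB1 had at most 0.12 FPKM and ZEB2 at most 0.04 FPKM. None of the 3 with reads passed an unadjusted p of 0.05 in edgeR.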

How the data were processed

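RNA-seq libraries (TruSeq Stranded mRNA, NovaSeq) were made from HT-29 cells with control vector or Myc-TRIM40, 2 libraries per condition. The authors deposited whole-number estimated counts and FPKM per RefSeq transcript for each library, and for experiment 2 also TPM. The submitters' processing notes list HISAT2 2.1.0, StringTie 1.3.4d and hg19. The deposited transcript lengths are in bases.

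Here 63714 transcripts were summed to 27685 genes. Reads were tested with edgeR 4.0.16 in R 4.3.3 (filterByExpr, TMM, quasi-likelihood F test), with the experiment as a block because each table holds 1 pair of libraries and the study compared within experiments. Same-numbered libraries deviated together (correlation 0.40 over 14868 genes). Standard errors come from the fold change and F, and intervals use the test's degrees of freedom. Within an experiment, ratios of FPKM + 1 were taken. The number of experiments, 2, limits precision, and p-values measure only the spread between these samples. The genes, the lists and the named genes (all 10 members, the 3 paralogs and 3 other junction genes with the largest common change, and transcripts with at least 5% of reads) were chosen with earlier results of these data known. Alternatives were no block, DESeq2 1.42.0, limma 3.58.1 on log2(FPKM + 1), a fit without the filter, upper-quartile scaling, each experiment left out, a pseudocount of 0.1, TPM, centring, and, for transcript shares, FPKM. For experiment 1, TPM was computed from FPKM. The length trend was a lowess curve (Python 3.11.15, statsmodels 0.14.6).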

Additional observations from a re-analysis of the deposited data

How the results depend on the processing

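Of the 10 junction genes, 0 passed an adjusted p of 0.05 in any of the 7 fits. The fit with the length trend removed held 9 of them and not CDH17. DSP had an unadjusted p under 0.05 in edgeR, DESeq2 and limma, and not without the block, with upper-quartile normalization, with no filter or with the length trend removed. Over all genes, 6 were called higher and 3 lower. A fit with no replicate block called 0 and 0 (153 genes at an unadjusted p under 0.05) and one with no filter 0 and 0 (447 genes). DESeq2 called 45 and 9, limma on log2(FPKM + 1) 3 and 0, and limma with the length trend removed 1 and 0. The causes were not tested.

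The median log2 fold change of the junction genes, 0.24, was 0.017 without replicate 2 and 0.29 without replicate 1, the 2 experiments, and these values have no test. It was 0.056 over 9 genes in the limma fit with the length trend removed. Without replicate 2 and without replicate 1, in this order, CDH1 was -0.033 and 0.53, CDH17 0.86 and -0.041, CTNNA1 -0.40 and 0.23, CTNNB1 0.0051 and -0.11, CTNND1 -0.035 and 0.60, and PKP2 -0.13 and 0.24. Signs also turned with limma for CTNNA1 (0.0027) and CTNNB1 (0.034), and with the length trend removed for PKP2 (-0.031). The median ratio of experiment 2, 0.36, was 0.60 on TPM + 1, where the median of all genes was 0.33 against 0.10 on FPKM + 1, and 0.12 with the length trend removed. The long form of DSP took 59.0% to 68.2% of summed FPKM, against 63.6% to 72.2% of reads. With 1 experiment left there is 1 library per condition and so no count of calls.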
